A study of Mus musculus with 8 samples.

Results

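The 10 regulators described here are the peroxisome proliferator-activated receptors *Ppara* and *Ppard*, the estrogen-related receptors *Esrra* and *Esrrg*, the shared receptor partner *Rxra*, the coactivators *Ppargc1a* and *Ppargc1b*, the corepressor *Nrip1*, and the mitochondrial factors *Tfam* and *Nrf1*. Members were chosen by name: every array spot that is not a control and whose gene name is one of the 10 was taken, out of 37074 gene names on the array. Together they had 25 probes. 24 of these, with at least 1 for each of the 10 genes, were well above background on all 8 arrays and were tested. The 1 probe left out, A_55_P2481764 of *Nrf1*, did not rise well above background on a single array.

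C57BL/6J male mice, 12 weeks old, received an intravenous injection of 100 μL of saline alone (Co mice, n = 4) or of saline with sonicated *P. gingivalis* (Pg mice, n = 4), a bacterium of periodontal disease, and tissue labelled as interscapular brown adipose tissue (BAT) was taken 18 h later. The dose was 100000000 CFU by the methods of the study, and the sample labels print it as 108 CFU. Both groups received an injection of the same volume. RNA of each mouse was hybridized to 1 Agilent one-color array, and the log2 signal given below is the quantile-normalized processed intensity. A probe counts as above background where the scanner software marked its spot as well above it, and q is the p of limma adjusted by the Benjamini-Hochberg method over the 33819 probes tested. All 8 arrays lay on 1 slide, with the Co mice in one row and the Pg mice in the other, so row and group cannot be told apart.

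PPARs, ERRs and their PGC-1 coactivators form the main transcriptional circuit for fatty acid oxidation and mitochondrial biogenesis. A PPAR binds DNA as a pair with RXR at a direct repeat of the half-site AGGTCA, whereas an ERR binds the extended half-site TCAAGGTCA without a ligand. PGC-1α (*Ppargc1a*) and PGC-1β (*Ppargc1b*) are docked on these receptors and on NRF1, and NRF1 in turn drives *Tfam*, the factor that packages and transcribes mitochondrial DNA. RIP140 (*Nrip1*) recruits repressors to the same receptors. In brown fat and in muscle, *Ppargc1a* is well known as a gene induced by cold, exercise and adrenergic signals, and *Nrip1* as a brake on oxidative genes and on *Ucp1*.

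As a check of the tissue, *Ucp1*, the uncoupling protein that defines brown adipocytes, was at background on all 8 arrays by its 1 probe, and the same held for *Elovl3*, *Slc27a2* and *Bmp8b*. Of 20 brown adipocyte markers, 14 were above background on all 8 arrays, among them *Cidea*, whose log2 change between the groups was -0.10 (q = 0.556, limma). All 20 skeletal muscle markers and all 12 white and general adipocyte markers were above background on every array. The log2 of the summed signal of the muscle markers was 22.18 to 22.25 in Co mice and 22.14 to 22.23 in Pg mice, and that of the white adipocyte markers was 18.15 to 18.28 and 18.05 to 18.27. Brown adipocyte markers summed to 18.94 to 19.08 in Co mice and 19.06 to 19.18 in Pg mice. A sum follows its brightest genes. The median log2 signal of a marker was 7.76 for brown adipocytes, 10.4 for white and general adipocytes and 17.9 for muscle. Macrophage markers (9 of 10 above background on all arrays) summed to 15.07 to 15.29 and 15.02 to 15.67, and neutrophil markers (4 of 8, with *Ngp* and *Ltf* on none) to 9.86 to 9.93 and 9.64 to 11.48. Gene by gene, 9 of 15 tested brown adipocyte markers and 9 of 12 white and general adipocyte markers were higher in Pg mice (median log2 changes 0.05 and 0.04), none with a q under 0.1 (limma). In the same comparison, 16 of the 20 muscle markers were lower (median -0.03, 1 with a q under 0.1), 6 of 9 tested macrophage markers were higher (median 0.36) and 4 of 5 tested neutrophil markers were higher (median 0.22), none of the latter 2 lists with a q under 0.1 (limma). Their part in the results below was not tested. Some of these marker values go against the label: the defining marker of brown fat was at background by its 1 probe, and muscle markers were present throughout. Other brown adipocyte markers, 14 of 20, were above background on all 8 arrays. Whether the RNA is that of BAT is therefore in doubt, and each value below is one of the RNA on these arrays. In RNA from whole tissue, fewer cells of a type and less RNA per cell cannot be told apart. In Co mice 34760 to 35831 probes were above background per array, and in Pg mice 31132 to 34063. Its part in the results was not tested.

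The promoters of 9 of the 10 regulators were found in a RefSeq table of the GRCm38.p6 build, in 15 windows of 300 bases, from 250 bases before to 50 bases after a transcription start. The sequences of *Nrip1*, *Tfam* and *Ppargc1a*, the genes whose values are described most closely below, are shown first, 250 bases before each start, 5′ to 3′ on the strand of the gene. Capitals mark the ETS site CCGGAAG, the site read by GABP (nuclear respiratory factor 2). *Nrip1* has 2 windows.
Nrip1, chr16:76373050-76373299, minus strand: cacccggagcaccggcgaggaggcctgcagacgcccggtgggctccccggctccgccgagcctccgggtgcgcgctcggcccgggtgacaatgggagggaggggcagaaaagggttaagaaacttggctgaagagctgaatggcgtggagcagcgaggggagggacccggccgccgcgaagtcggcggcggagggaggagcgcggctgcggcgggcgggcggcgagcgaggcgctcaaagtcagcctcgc
Nrip1, chr16:76373828-76374077, minus strand: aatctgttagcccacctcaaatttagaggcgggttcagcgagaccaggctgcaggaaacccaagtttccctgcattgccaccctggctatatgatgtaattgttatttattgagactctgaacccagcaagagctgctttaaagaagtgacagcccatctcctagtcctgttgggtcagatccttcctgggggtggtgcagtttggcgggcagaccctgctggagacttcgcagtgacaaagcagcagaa
Tfam, chr10:71238045-71238294, minus strand: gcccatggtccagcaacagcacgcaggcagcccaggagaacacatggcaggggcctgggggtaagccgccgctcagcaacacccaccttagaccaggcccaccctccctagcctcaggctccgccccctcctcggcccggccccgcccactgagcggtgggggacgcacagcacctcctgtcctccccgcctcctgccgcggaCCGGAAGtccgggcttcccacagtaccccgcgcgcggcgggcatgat
Ppargc1a, chr5:51567726-51567975, minus strand: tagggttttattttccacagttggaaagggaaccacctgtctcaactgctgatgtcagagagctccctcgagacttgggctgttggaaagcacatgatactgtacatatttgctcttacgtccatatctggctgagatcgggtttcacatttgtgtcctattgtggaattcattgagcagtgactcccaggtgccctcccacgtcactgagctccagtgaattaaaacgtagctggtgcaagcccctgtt

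Both strands of the 15 windows were searched for 6 motifs. The ETS site lay 47 to 41 bases before a transcription start of *Tfam* and in no other member window, against 8.86% of 32851 windows of all genes. The NRF1 consensus site, a GC-rich palindrome, was found for *Ppara*, 31 to 22 bases before the start, against 4.60% of all windows. The receptor half-site AGGTCA was found in 1 window, of *Rxra*, at 87 to 82 and at 48 to 43 bases before the start, against 16.3% of all windows. For *Tfam*, *Ppara* and *Rxra*, the start next to these matches lies inside the annotated span of the gene and is not its outermost start. None of the 15 windows held the ERR element TCAAGGTCA (0.423% of all windows), the direct repeat AGGTCANAGGTCA (0.0396%) or the cyclic AMP response element TGACGTCA (1.79%). The half-site is part of both the ERR element and the direct repeat, so these 3 searches overlap. A match gives letters in a window and does not show that a factor binds there.

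To ask whether the endotoxemia altered the mRNA expression of these regulators, the 33819 probes above background on at least 4 arrays were compared between Pg mice and Co mice with limma. No probe of the 10 regulators was a differentially expressed gene (DEG, q under 0.1 and fold change above 1.5), whereas 546 probes (1.61%) were DEGs on the whole array. The largest fold change among the 24 probes was 1.36. Without the fold limit, 2 of the 24 probes (8.33%) had a q under 0.1, both were of *Nrip1* and both were lower in Pg mice, and of all probes 2644 (7.82%) passed this limit, 2028 of them (6.00%) lower. The share among the regulators was thus close to that of the array. Both counts changed when single mice were left out. Each omission also leaves fewer arrays for the test, and the part of each was not tested. The 2644 probes were 1003, 234, 3 and 555 when Co mouse 1, 2, 3 or 4 was left out, with none of the regulators among them. They were 627, 675 and 806 without Pg mouse 1, 2 or 4, again with none, and 2411 without Pg mouse 3, with 2.

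**Figure D1:**
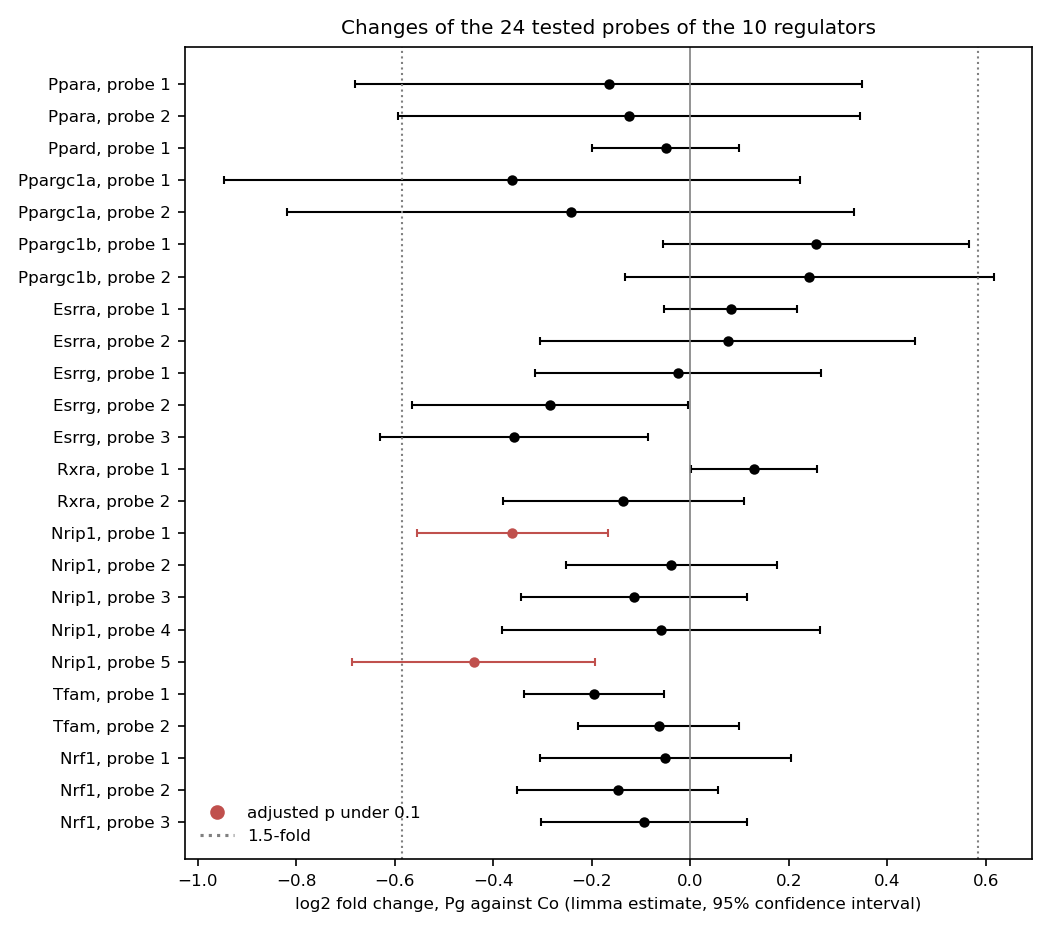
Log2 fold change of the 24 tested probes, Pg mice against Co mice, with the 95% confidence interval of limma (n = 4 per group), where probes of a gene are numbered from the brightest. Only *Nrip1* probes 1 and 5 have a q under 0.1 (red), no estimate reaches the dotted lines at 1.5-fold, and the intervals of *Ppargc1a* are the widest.

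By sign, 19 of the 24 probes had a lower and 5 a higher mean in Pg mice. The median change was -0.10 on the log2 scale, beside -0.04 and 57.7% lower among all probes tested. Every tested probe was lower for 7 of the genes and higher for 2 (*Ppargc1b* and *Esrra*), and the 2 probes of *Rxra* had opposite signs. An unadjusted p under 0.05 was reached by 6 of the 24 probes (25%), against 22.8% of all probes. The Co and Pg values did not overlap for 4 of them (16.7%), all lower in Pg mice: 2 probes of *Nrip1*, 1 of *Esrrg* and 1 of *Tfam*. Of all probes, 5351 (15.8%) did not overlap and 3716 (11.0%) did not overlap and were lower. The share at an unadjusted p under 0.05 and that without overlap lay near those of the array. Lower values were more frequent among the probes of the regulators than on the array, a difference that was not tested. Several of these probes are of the same gene and are not independent.

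*Nrip1* encodes RIP140, the corepressor of nuclear receptors in fat and muscle. Its brightest probe, A_51_P152747, read 10.04, 10.19, 9.90 and 10.20 in Co mice 1 to 4, and 9.66, 9.68, 9.82 and 9.73 in Pg mice 1 to 4, as log2 signal. All 4 Pg values lay below the lowest Co value. The signal fell by 22.1% (95% interval -31.9% to -11.0%), a log2 fold change of -0.36 (SE 0.08, q = 0.0702, limma). A second probe, A_52_P413584, read 7.29, 7.48, 7.28 and 7.53 in Co mice and 7.06, 6.70, 7.10 and 6.96 in Pg mice. Again the groups did not overlap. Here the signal fell by 26.3% (-37.8% to -12.6%), a log2 fold change of -0.44 (SE 0.11, q = 0.0747, limma). The q of both stayed under 0.1 when Pg mouse 3 was left out (0.0827 and 0.0818). It lay between 0.109 and 0.161 when any other single mouse was left out. The groups stayed apart each time, but groups that are apart can hardly overlap once a mouse is removed, so this adds no support. Removing Co mouse 2 gave the highest values for both, 0.150 and 0.161. The processing mattered too. A_52_P413584 was at -0.24 (q = 0.114) with the median signal and at -0.27 (q = 0.135) with the authors' values, and its q was 0.121 with scaling to the 75th percentile, 0.237 without normalization, 0.117 without a filter on dim probes and 0.166 with a replicate block. A_51_P152747 kept a q under 0.1 in the first 3 of these and had a q of 0.171, 0.107 and 0.153 in the others.

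The other 3 *Nrip1* probes were 8.97 ± 0.11, 8.73 ± 0.12 and 8.56 ± 0.11 in Co mice (log2 signal, SD, n = 4) and 8.93 ± 0.15, 8.62 ± 0.17 and 8.50 ± 0.28 in Pg mice for A_55_P2717747, A_55_P2717737 and A_55_P2717742. Their log2 fold changes were -0.04, -0.11 and -0.06, with a q of 0.531 or more (limma), and the groups overlapped for each. All 5 probes lie on the minus strand of chromosome 16 in the mm9 build that the array files use. The pair that was lower in Pg mice sits at the 3′ side of the gene, A_52_P413584 at chr16:76288478-76288537 and A_51_P152747 at chr16:76291555-76291614, which is 3.1 kb upstream. A_55_P2717737 (chr16:76328642-76328701) and A_55_P2717742 (chr16:76328748-76328807) lie 40.2 and 40.3 kb upstream of the 3′-most probe, and A_55_P2717747 (chr16:76351861-76351920) 63.4 kb upstream. By the array files the brightest probe was designed on the RefSeq mRNA NM_173440 and each of the other 4 on an Ensembl transcript of its own. No mm9 annotation was used here, so exon or intron is not given for them.

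**Figure D2:**
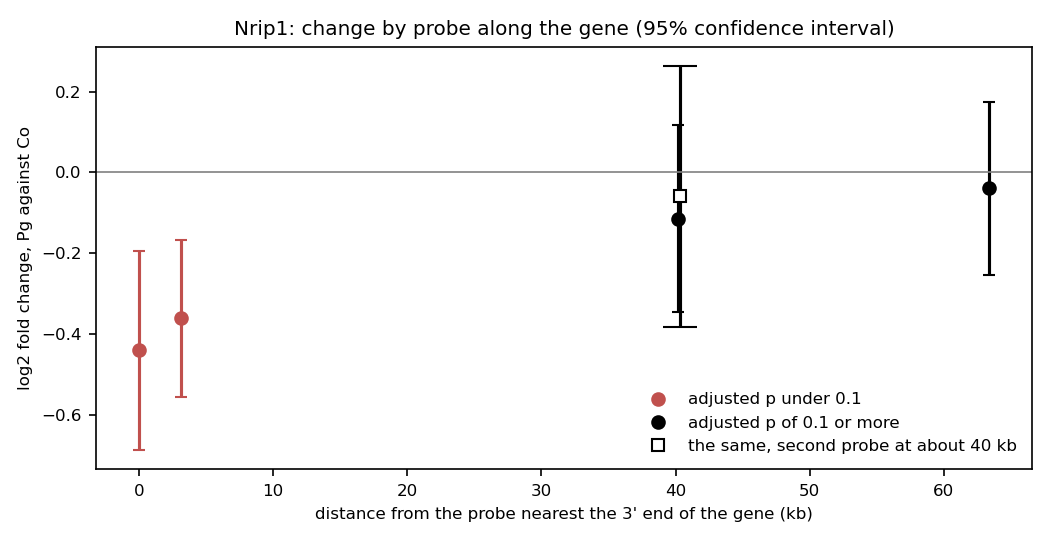
Log2 fold change of the 5 *Nrip1* probes, Pg mice against Co mice, with the 95% confidence interval of limma (n = 4 per group), by distance in kb from the probe nearest the 3′ end of the gene. The probes at 0 and 3.1 kb are at -0.44 and -0.36, and those at 40.2, 40.3 and 63.4 kb are between -0.11 and -0.04, with intervals that span 0.

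Whether probes of one gene differed was tested directly, as the difference within each array between the brightest probe and each other probe. There were 14 such pairs over the genes with several probes, and 1 had an unadjusted p of 0.0286, the smallest that the 70 splits of 8 arrays allow. After Benjamini-Hochberg adjustment over the 14 pairs no p was under 0.160. The *Nrip1* probe A_51_P152747 differed from the 3 upstream probes by -0.32, -0.25 and -0.30 on the log2 scale, with an adjusted p of 0.200, 0.160 and 0.160 in the exact permutation test (two-sided). From its 3′ neighbour A_52_P413584 it differed by 0.08 (adjusted p = 0.667, exact permutation test). With 14 pairs and a smallest p of 0.0286, an adjusted p under 0.05 would have needed most of the pairs at that smallest p, so this test could hardly pass for *Nrip1* alone, and whether its probes changed unequally is not answered by it.

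**Figure D3:**
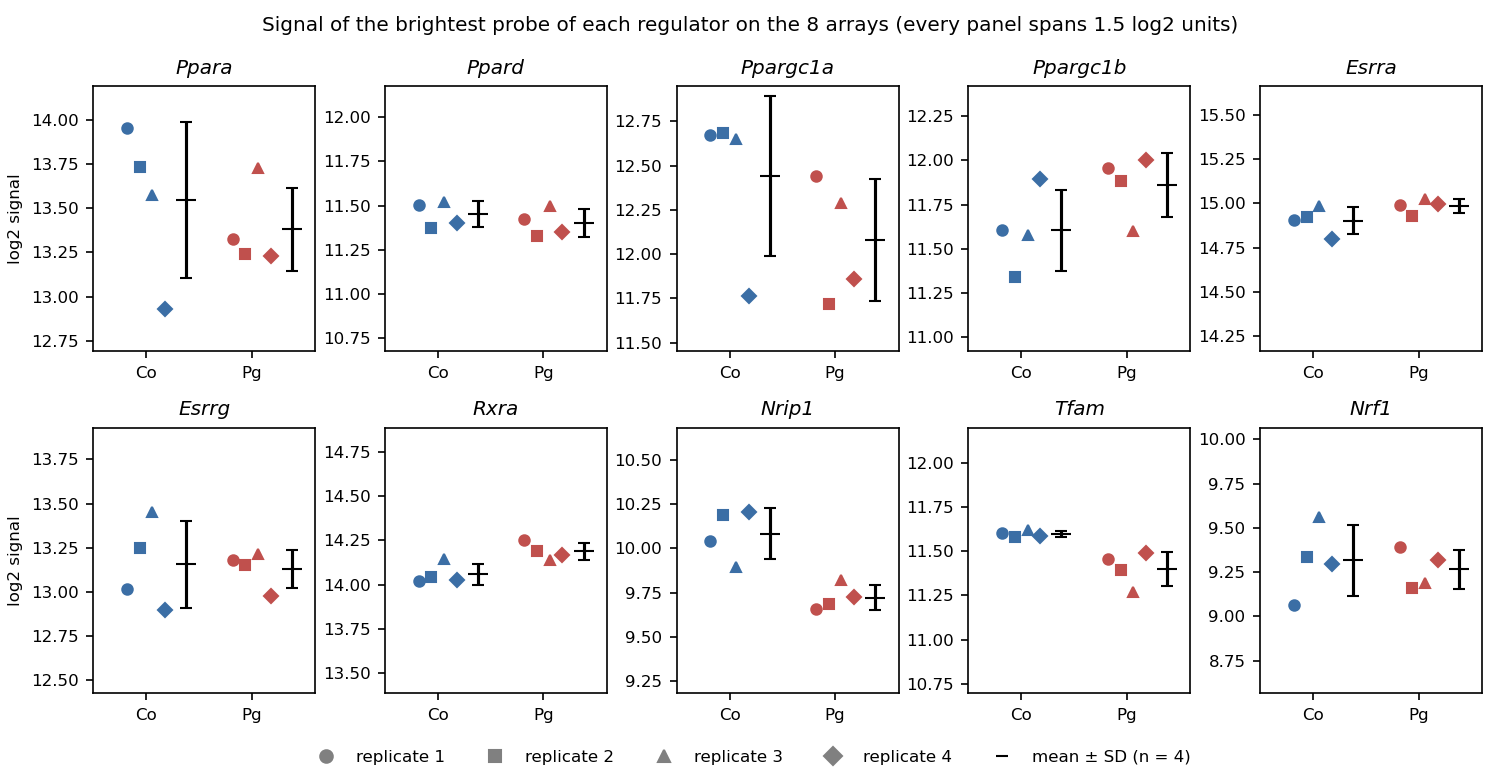
Log2 signal of the brightest probe of each of the 10 regulators, 1 point per mouse with its replicate number as the marker, and the mean ± SD of 4 Co mice (blue) and 4 Pg mice (red). For *Nrip1* and *Tfam* every Pg point lies below every Co point, and for *Ppara* and *Ppargc1a* the Co points are the most widely spread, with Co mouse 4 lowest.

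PPARα (*Ppara*) is the fatty acid sensor that turns on β-oxidation genes. Probe A_55_P2055854 read 13.95, 13.73, 13.58 and 12.93 in Co mice 1 to 4 and 13.33, 13.24, 13.73 and 13.23 in Pg mice, so that Co mouse 4 was below all Pg mice and the groups overlapped. The log2 fold change was -0.17 (95% interval -0.68 to 0.35, q = 0.691, limma), and the second probe, A_55_P2071596, gave -0.12 (q = 0.75). Both estimates depended on single control mice: they were -0.37 (q = 0.232) and -0.30 (q = 0.300) without Co mouse 4, and -0.03 for each without Co mouse 1 (q = 0.951 and 0.947). PPARδ (*Ppard*), the more broadly expressed PPAR of oxidative muscle, read 11.51, 11.37, 11.52 and 11.40 in Co mice and 11.43, 11.33, 11.50 and 11.35 in Pg mice. Its log2 fold change was -0.05 with a narrow interval, from -0.20 to 0.10 (q = 0.680, limma). In percent, this interval runs from -12.9% to 7.14% for *Ppard*, and from -37.6% to 27.4% for *Ppara*.

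RXRα (*Rxra*) is a form of RXR, the partner that every PPAR needs to bind DNA. Its brighter probe, A_55_P2931478, read 14.02, 14.04, 14.14 and 14.02 in Co mice and 14.25, 14.19, 14.14 and 14.17 in Pg mice, with overlap only between Co mouse 3 and Pg mouse 3. The log2 fold change was 0.13 (SE 0.06, q = 0.216, limma) and did not pass the test. With the values normalized by the authors it was -0.02 (q = 0.872), so no direction is given. The dimmer probe, A_51_P307370, gave -0.14 (q = 0.481).

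The estrogen-related receptor ERRα (*Esrra*) drives genes of oxidative phosphorylation and the citric acid cycle together with PGC-1. Probe A_55_P1954306 read 14.90, 14.92, 14.98 and 14.80 in Co mice and 14.99, 14.93, 15.03 and 14.99 in Pg mice. The groups overlapped, and the log2 fold change was 0.08 (95% interval -0.05 to 0.22, q = 0.443, limma). The second *Esrra* probe, A_52_P198949, gave 0.08 as well (q = 0.813), but -0.07 without Co mouse 4 (q = 0.751) and 0.01 without Pg mouse 3.

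ERRγ (*Esrrg*), the isoform of highly oxidative tissues such as brown fat and heart, had 3 probes, whose changes were -0.02, -0.28 and -0.36 on the log2 scale. The brightest, A_55_P2799081, read 13.02, 13.25, 13.46 and 12.90 in Co mice and 13.18, 13.16, 13.22 and 12.97 in Pg mice (q = 0.924, limma), and all Pg values lay within the Co range. A_55_P2006499 read 12.46, 12.56, 12.81 and 12.25 in Co mice and 12.19, 12.17, 12.39 and 12.20 in Pg mice, with 3 of the Pg values below every Co value (q = 0.213). A_55_P2714464, designed on an Ensembl transcript of its own, read 6.18, 6.47, 6.13 and 6.15 in Co mice and 5.63, 6.05, 6.00 and 5.80 in Pg mice. Its groups did not overlap, but its q was 0.134 (SE 0.12, limma). The first and second of these probes lie on the same RefSeq mRNA, and the difference of 0.26 between their changes was the 1 pair with the smallest possible unadjusted p (adjusted p = 0.160, exact permutation test).

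*Ppargc1a* encodes PGC-1α, the inducible coactivator of the circuit. Probe A_51_P279038 read 12.67, 12.68, 12.65 and 11.76 in Co mice 1 to 4 and 12.44, 11.72, 12.29 and 11.86 in Pg mice 1 to 4. Co mice 1 to 3 lay close together and above all Pg mice, and Co mouse 4 lay with the lowest Pg mice. Over all 8 arrays the log2 fold change was -0.36 (95% interval -0.95 to 0.22, q = 0.431, limma), an interval that in percent runs from -48.1% to 16.6%. The second probe, A_55_P2745394, read 10.76, 10.73, 10.54 and 9.76 in Co mice, again with Co mouse 4 far below the rest, and 10.49, 9.96, 10.43 and 9.92 in Pg mice (log2 fold change -0.24, q = 0.597). Leaving out Co mouse 4 moved the 2 estimates to -0.59 (SE 0.18, q = 0.152) and -0.47 (q = 0.193), and the groups then no longer overlapped, but neither passed the test. The estimates were also larger without Pg mouse 1 (-0.485 and -0.341) and without Pg mouse 3 (-0.434 and -0.32). The other omissions made them smaller, down to -0.24 for A_51_P279038 (without Pg mouse 2, q = 0.653). For A_55_P2745394 they were -0.14, -0.15, -0.15 and -0.16 without Co mouse 1, Co mouse 2, Pg mouse 4 or Pg mouse 2. Co mouse 4 carries a control label like the other 3, and there is no ground in the labels to remove it.

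*Ppargc1b* encodes PGC-1β, the less inducible partner that sustains mitochondrial mass. Probe A_51_P294891 read 11.61, 11.34, 11.58 and 11.90 in Co mice and 11.96, 11.88, 11.60 and 12.00 in Pg mice, the opposite order of *Ppargc1a* in that Co mouse 4 was the highest control. The log2 fold change was 0.26 (95% interval -0.05 to 0.57, q = 0.300, limma). A_65_P02810 read 9.63, 9.51, 9.78 and 10.20 in Co mice and 10.09, 9.96, 9.80 and 10.24 in Pg mice (log2 fold change 0.24, q = 0.412). Without Co mouse 4 the estimates were 0.35 (q = 0.178) and 0.38 (q = 0.163), and without Co mouse 2 they were 0.17 (q = 0.516) and 0.15 (q = 0.654). Both coactivators thus had estimates of opposite sign, and neither passed the test.

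**Figure D4:**
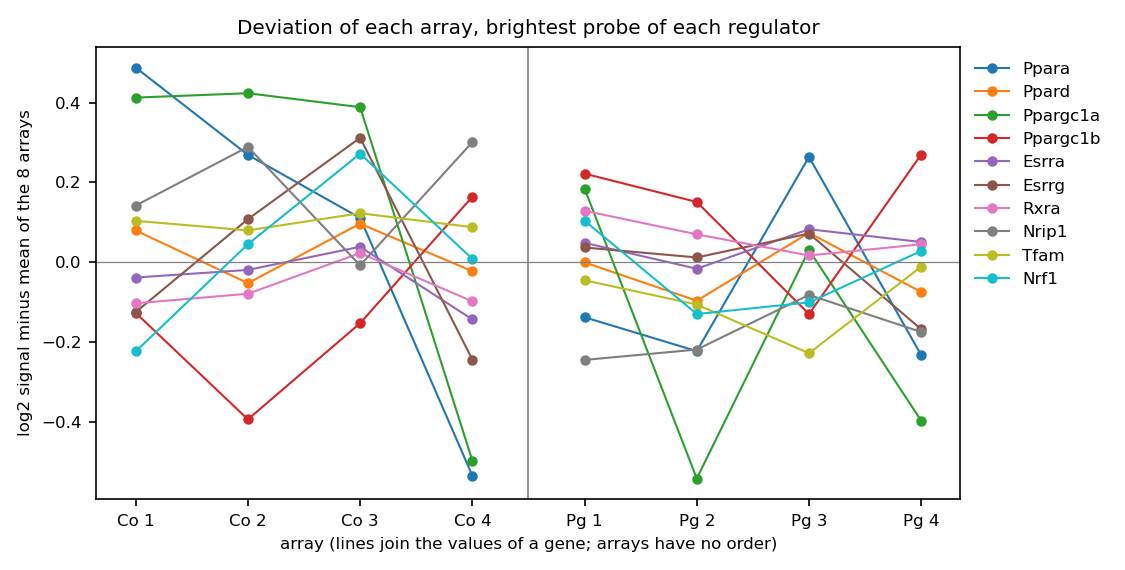
Log2 signal of the brightest probe of each of the 10 regulators on each array, minus its mean over the 8 arrays, where lines join the values of one gene within a group and arrays have no order. On the Co 4 array *Ppara* and *Ppargc1a* are far below their means while *Nrip1* and *Ppargc1b* are above theirs, and *Tfam* is above its mean on every Co array and below it on every Pg array.

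The spread between mice was wide for *Ppargc1a* and *Ppara*. The SD of the 4 Co mice was 0.45 and 0.47 on the log2 scale for the *Ppargc1a* probes and 0.44 and 0.37 for the *Ppara* probes, wider than in 94.5%, 95%, 94.0% and 90.7% of all probes tested, whose median SD was 0.14 in both groups. In Pg mice the SDs of the same probes were 0.34 and 0.30, and 0.24 and 0.26. At the other end, the Co mice differed for *Tfam* probe A_51_P493720 by an SD of only 0.02, smaller than in all but 0.653% of probes. Over the 24 probes of the regulators, Co mouse 4 was the lowest of its group for 10 and Pg mouse 2 for 9, against 28.9% and 27.6% of all probes, and Pg mouse 3 was the highest for 11 and Co mouse 3 for 9, against 26.8% and 23.9%.

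*Tfam* encodes the packaging and transcription factor of mitochondrial DNA. Its probe A_51_P493720 read 11.60, 11.58, 11.62 and 11.59 in Co mice and 11.45, 11.39, 11.27 and 11.49 in Pg mice. All Pg values lay below all Co values, with a log2 fold change of -0.20 (SE 0.06, 95% interval -0.34 to -0.05), but the q was 0.123 (limma). With normexp background correction it was 0.0959 (log2 fold change -0.21). The second probe of the same mRNA, A_55_P2026445, read 10.68, 10.70, 10.76 and 10.86 in Co mice and 10.61, 10.67, 10.64 and 10.82 in Pg mice. Here the groups overlapped, and the log2 fold change was -0.06 (q = 0.622). The change of the brighter probe differed from this by -0.13 (adjusted p = 0.160, exact permutation test).

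*Nrf1*, nuclear respiratory factor 1, binds the promoters of many nuclear genes for mitochondrial proteins. Probe A_55_P2000077 read 9.07, 9.33, 9.56 and 9.30 in Co mice and 9.39, 9.16, 9.19 and 9.32 in Pg mice. Co mice 1 and 3 lay to either side of all 4 Pg mice, and the log2 fold change was -0.05 (q = 0.815, limma). A_55_P2506320 gave -0.15 (q = 0.358) and A_66_P102204 gave -0.09 (q = 0.573). Each of the 4 *Nrf1* probes was designed on another RefSeq transcript, and the fourth, on NM_001164229, stayed between 2.07 and 2.17, at background in both groups.

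Genes that these regulators control or work with were taken from 5 lists, with the brightest tested probe for each gene. None of the 122 genes tested in these lists was a DEG by that probe, against 266 of 22437 genes (1.19%) on the array, and 4 had a q under 0.1 against 1401 genes (6.24%). The median log2 change of all genes was -0.01, with 52.8% lower, and at an unadjusted p under 0.05 12.3% of all genes were lower and 8.02% higher.

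Of 30 PPAR target genes, 29 were tested (*Fgf21* was not above background on any array). Their median log2 change was -0.01, 15 were lower and 14 higher, 3 lower and 0 higher at an unadjusted p under 0.05, and 1 passed a q of 0.1, the fatty acid transporter *Slc27a1*. It read 12.70, 12.72, 12.75 and 12.78 in Co mice and 12.37, 12.46, 12.47 and 12.63 in Pg mice (log2 fold change -0.26, SE 0.07, q = 0.0846, limma), without overlap. The smallest p among the higher genes was that of *Mlycd*, malonyl-CoA decarboxylase, which relieves the block on fatty acid entry into mitochondria, at 0.15 (q = 0.252). The list's largest changes, named after their values were seen, were those of *Ehhadh*, an enzyme of peroxisomal β-oxidation, at -0.66 (SE 0.24, q = 0.160) and of *Angptl4*, an inhibitor of lipoprotein lipase, at -0.47 (SE 0.17, q = 0.163). Neither passed the test, and the groups overlapped for both. Of 28 ERR and PGC-1 target genes of energy metabolism, 27 were tested and none passed, with a median of -0.000249 and 3 genes (11.1%) lower and 0 higher at an unadjusted p under 0.05. *Mb*, myoglobin, had the smallest p among the lower ones, at -0.15 (q = 0.149), and *Cox6a2*, the muscle form of a cytochrome c oxidase subunit, among the higher ones, at 0.09 (q = 0.284). Among the 18 mitochondrial DNA maintenance and transcription genes, which work beside *Tfam*, none passed and the median was -0.02, with 1 lower at an unadjusted p under 0.05. The mitochondrial exonuclease *Mgme1* was at -0.20 (q = 0.216) and the termination factor *Mterf1a* at 0.23 (q = 0.577).

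Of 32 coregulators and upstream regulators, 31 were tested, and 2 had a q under 0.1, both lower, beside a list median of 0.01. At an unadjusted p under 0.05, 5 were lower (16.1%) and 1 higher (3.23%). *Ep300*, the acetyltransferase p300 that PGC-1α recruits, read 9.31, 9.15, 9.21 and 9.45 in Co mice and 8.70, 8.65, 8.88 and 8.76 in Pg mice. The groups did not overlap, and the log2 fold change was -0.53 (SE 0.09, q = 0.0439, limma), short of 1.5-fold. *Hdac3*, the deacetylase of the NCoR repressor complex, was at -0.26 (SE 0.07, q = 0.0796). It is named because it is the other of these 2 genes, after its value was seen. The kinase p38α, *Mapk14*, which phosphorylates PGC-1α, was at 0.15 (q = 0.208). Of 18 partner nuclear receptors and nuclear respiratory factors, 17 were tested, 12 were higher and 5 lower, 4 (23.5%) and 1 of them at an unadjusted p under 0.05, and the median was 0.12. *Gabpb1*, a subunit of the ETS factor GABP, read 9.52, 9.59, 9.88 and 9.81 in Co mice and 10.02, 9.98, 10.01 and 10.03 in Pg mice (log2 fold change 0.31, SE 0.09, q = 0.0994, limma), without overlap. The thyroid hormone receptor *Thrb* had the smallest p among the lower genes, at -0.26 (q = 0.146).

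**Figure D5:**
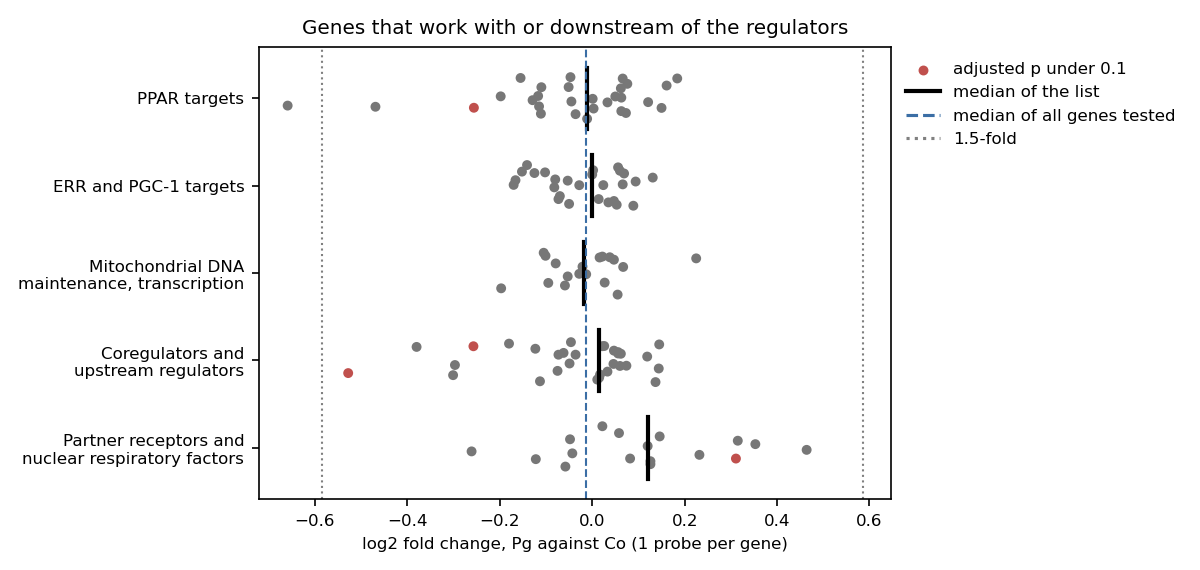
Log2 fold change of the genes of the 5 lists, Pg mice against Co mice, 1 point per gene by its brightest tested probe, with points spread vertically for sight. The 4 genes with a q under 0.1 are *Slc27a1* (-0.26), *Ep300* (-0.53), *Hdac3* (-0.26) and *Gabpb1* (0.31), and list medians run from -0.02 to 0.12 beside -0.01 for all genes.

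For 5 of the 75 list genes with several tested probes (6.67%) a dimmer probe was a DEG, lower in Pg mice, although the brightest probe was not. The same held, in either direction, for 263 of 7455 such genes on the array (3.53%), 234 of them lower, and whether the shares differ was not tested. The 5 genes are named after their values were seen. The log2 fold change of the dimmer probe was -0.81 for *Acsl1*, which activates long-chain fatty acids (q = 0.0659, against 0.00 for the brightest probe, q = 0.991). It was -0.63 for *Kat2a*, the acetyltransferase GCN5 that restrains PGC-1α (q = 0.0571, against 0.06). For *Atf2*, a factor that induces *Ppargc1a*, it was -1.01 (q = 0.0886, against 0.01). For *Prkaa2*, the α2 catalytic subunit of AMP kinase, it was -0.63 (q = 0.0398, against -0.05), and for *Foxo1*, a partner of PGC-1α, -0.66 (q = 0.0880, against -0.38). All of these dimmer probes were above background on all 8 arrays. Whether probes of these 5 genes differed from each other was not tested. Without Co mouse 3 only 3 probes of the whole array were DEGs, and with a replicate block 0. Thus not all of these 5 calls were kept without Co mouse 3, and none with the block.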

How the data were processed

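Expression was measured on Agilent one-color 8 x 60K mouse arrays, 4 of Co mice and 4 of Pg mice. The deposited scanner output of Feature Extraction 11.0.1.1 holds, for each spot, a processed intensity (background-subtracted and detrended, not yet normalized across arrays) and its mean, median and local background intensity. The authors also deposited 28067 entries with quantile-normalized log2 values, used as an alternative. Its columns of fold changes, p-values, q-values, t and log odds were not used.

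The processed intensities of 59305 spots that are not controls, without population outliers (90 to 150 per array), were averaged per probe (56605 probes), quantile-normalized, floored at 1 and put on the log2 scale. The 33819 probes well above background on at least 4 of 8 arrays were tested with lmFit and eBayes of limma 3.58.1 (R 4.3.3, data.table, version 1.17.8), two-sided, with Benjamini-Hochberg adjustment (q) over all of them. DEGs were defined as in the study's methods (q under 0.1, fold change over 1.5). Code was tested on simulated data. Samples were grouped by their titles. Fold changes lie on the log2 scale of the normalized signal, brightness served only to rank the probes of a gene, and the number of arrays limits the precision. With 4 arrays per group no exact permutation p is under 0.0286. P-values measure the spread between mice, 1 array each.

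Gene names of list genes and other probes came from RefSeq for 33903 probes through the accession, and otherwise from the array. Named are all 10 regulators, for each list and direction the gene with the smallest p and, among genes with a q under 0.1, the one with the largest change, *Ucp1*, *Cidea*, markers at background, and the 3 probes most like *Ppara* and *Ppargc1a*; exceptions are said where they stand. Members and lists were chosen with earlier results of these data known. Alternatives were normexp (offset 50), the median signal, scaling to the 75th percentile, no normalization, the authors' values, 2 other filters, a floor of 16, a replicate block and each array left out.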

Additional observations from a re-analysis of the deposited data

Results flagged for a closer look

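Among the 48 sets of 4 values looked at (24 probes in 2 groups), 3 held a mouse far from the other 3, with a gap to its nearest neighbour, as a share of the range of its group, above Dixon's critical value. By chance about 1 in 20 such sets would. For *Ppargc1a* probe A_51_P279038, Co mouse 4 read 11.76 while the other Co mice read 12.65 to 12.68, a gap of 0.962 of the range. The second *Ppargc1a* probe had the same mouse lowest, with a smaller gap. For *Esrrg* probe A_55_P2006499, Pg mouse 3 read 12.39 and the other Pg mice 12.17 to 12.20 (0.857). For *Esrrg* probe A_55_P2714464, Co mouse 2 read 6.47 and the other Co mice 6.13 to 6.17 (0.879). The share of all probes on which an array stood apart in this way was 1.67% for Co mouse 4, 1.54% for Pg mouse 3 and 1.01% for Co mouse 2, beside 1.01% to 1.67% over the 8 arrays.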

How the results depend on the processing

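No probe of the regulators and no list gene by its brightest probe was a DEG under any alternative. The 2 probes of the regulators with a q under 0.1 became 3 with normexp (with *Tfam*), 1 with the median signal, 1 with scaling to the 75th percentile, 1 with the authors' values, 0 without normalization between arrays and 0 without a filter on dim probes, where more probes are tested. With each array left out the regulators had 0 to 2 such probes, and 2 only without Pg mouse 3. The number of such probes on the whole array moved too. It was 2644 in the main fit, 3452 under normexp, 1546 after scaling, 3065 for the median signal and 29 without normalization. It was 1715 on the authors' values, where fewer probes are tested, and 1269 without the filter. Whether the regulators moved apart from the array was not tested. Over all alternatives, the *Nrip1* log2 fold changes stayed between -0.42 and -0.32 (q 0.0554 to 0.171) for A_51_P152747 and between -0.49 and -0.24 (q 0.0587 to 0.237) for A_52_P413584. Probes of the regulators whose groups did not overlap numbered 4 in the main fit. They were 5 under normexp, 3 after scaling, 3 for the median signal, 2 without normalization and 2 on the authors' values. When an array was left out they were 4 to 8, the 8 being without Co mouse 4. Removing a mouse can hardly bring separate groups to overlap, so a count with fewer mice can hardly fall below 4. Shares without overlap over all probes are not given for these alternatives. Whether the regulators differed from the array in this was not tested. Pairs of probes with an unadjusted p under 0.05 in the exact permutation test went from 1 to 2 with normexp and to 2 with the median signal. *Rxra* turned to -0.022 with the authors' values. The *Esrrg* probe A_55_P2799081 lay between -0.111 and 0.076 with each array left out, above 0 without Co mouse 2, Co mouse 3 or Pg mouse 4, and *Nrf1* between -0.133 and 0.032, above 0 without Co mouse 3. The dimmer *Esrra* probe turned to -0.073 without Co mouse 4, and 2 of the upstream *Nrip1* probes to 0.007 (without Co mouse 3), 0.014 and 0.06 (without Pg mouse 1). None of these passed the test before or after. The cause was not tested.

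The array-wide count of 546 DEGs was 94 with normexp, 108 with the median signal, 283 with scaling, 27 without normalization, 106 with the authors' values, 372 without a filter, 318 with a filter on all 8 arrays, 511 with a floor of 16, and 3 (without Co mouse 3) to 698 (without Pg mouse 3) with an array left out. The deviations of same-numbered Co and Pg mice had a low correlation (r = 0.06, -0.03, -0.07 and 0.18). The best match of a Co mouse was its own number for 2 of 4. Whether the numbers pair the mice was not tested, and the main fit does not pair them. With the replicate number as a block, 0 of all probes and 0 of those of the regulators had a q under 0.1 (limma, 2644 and 2 without the block). With 8 arrays, fitting the block also weakens the test. Authors' values were not at hand for every probe: 19 of the 24 were tested there.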

Other observations

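Across the 8 arrays, the 3 probes whose log2 signal was most like that of *Ppargc1a* were of *Cnot2* (Pearson's r = 0.986, Spearman's rho = 0.905), *Trmt13* (0.985 and 0.952) and *Tbpl1* (0.983 and 0.929). For *Ppara* they were *Gm3317* (r = 0.991, rho = 0.905), *Rilp* (0.987 and 1) and *Smarcal1* (0.983 and 0.905). These are the highest of 33819 probes and carry no test, and the 8 points share the slide. None of the 6 probes differed between Pg mice and Co mice at a q under 0.1, and their log2 fold changes lay between -0.13 and -0.04 (limma).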
